A study of Mus musculus with 8 samples.

Results

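The noncollagenous matrix of cartilage was followed in cultured bone marrow mesenchymal stem cells (MSCs) of mice through 10 named genes, out of 47643 entries with a gene name in the deposited expression table. The genes are Acan and Hapln1 of the proteoglycan aggregate, Comp, Matn1, Matn3 and Matn4 of the bridging proteins, the leucine-rich Chad, and the smaller secreted or membrane-bound products Lect1, Ucma and Cytl1. They were selected on the difference between genotypes. They were listed by name after the counts of most of them had been seen to fall in the same 4 libraries. That difference is therefore described for them without a test. A count filter kept 8 of the 10 among the 15327 genes tested, and Matn1 and Cytl1 did not pass it.

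RNA-seq compared 2 libraries called wild type (WT) in the sample labels with 2 libraries of conditional knockout (cKO) cells, labelled Prx1-cre;Mettl3fl/fl. In the study's account the controls are Mettl3fl/fl littermates, so that both genotypes carry floxed alleles and differ by the Cre transgene. Mettl3 is the catalytic subunit of the enzyme that writes N6-methyladenosine (m6A) on mRNA, and Prx1-Cre is driven by a promoter active in the mesenchyme of the limb bud. MSCs of C57BL/6 mice were flushed from femurs and tibiae, and all samples spent 2 days with ascorbic acid (50 μg/ml), β-glycerophosphate (5 mM) and dexamethasone (100 nM) in medium with 10% serum. The age of the animals behind these libraries, and whether the 2 libraries of a genotype came from separate animals, are not given in the sources used here. P-values therefore measure only the spread between these libraries, which may be technical. A separate m6A immunoprecipitation experiment (MeRIP-Seq) on cells labelled wild type had 2 immunoprecipitates and 2 inputs, deposited as 1 list of 10160 peaks.

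Libraries held 23978099 to 34106693 estimated counts. Mettl3 stood at 17.6 and 16.9 CPM (counts scaled to library size) in the WT libraries and at 17.5 and 16.3 CPM in the cKO libraries (log2 fold change −0.03, SE 0.0929, adjusted p = 0.824 by edgeR's quasi-likelihood test). The gene-level count also covers exons outside the deleted exons 2 and 3, so it does not check the genotype labels. The WT pair differed more than the cKO pair. The ratio of WT 2 to WT 1 ran from 0.741 to 1.333 between the 5th and 95th percentiles of 12663 genes whose 2 WT counts reached 100 together, and that of cKO 2 to cKO 1 from 0.867 to 1.155 over 12368 genes. Transcripts of other cells were present. Macrophage markers summed to 15611 CPM in WT 1 and to between 20281 and 21011 CPM in the other libraries, with 2 of 7 higher and 0 lower in cKO (edgeR). Lyz2 made up most of each sum and was lowest in WT 1. Of the other markers, Adgre1, C1qa, Cd68 and Itgam were higher in WT 1 than in WT 2, and Csf1r and Ptprc were lower. Osteoblast markers fell in 6 of 6 cases, and of 5 adipocyte markers 3 rose and 1 fell. Over all 15327 genes tested, 16.8% were called lower and 13.7% higher. Neutrophil, endothelial, tendon and red cell markers each stayed under 10 CPM, with Mpo and S100a9 at 0 in all libraries. Among them Kdr rose from 2.45 and 1.77 to 9.90 and 8.84 CPM, and S100a8 fell from 2.72 and 3.39 to 0.784 and 0.376 CPM. The part of these other cell types in the results was not tested. Of 10 stromal markers, 5 fell and 4 rose, among them Thy1 (from 3.93 and 1.91 to 74.6 and 69.4 CPM), Prrx1 (from 146 and 134 to 288 and 289 CPM) and Nt5e (from 12.3 and 12.3 to 2.85 and 2.04 CPM), while Lepr was at 1.24 CPM or less.

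Cartilage matrix is built on a collagen scaffold that holds a gel of proteoglycan aggregates. In an aggregate, aggrecan binds a hyaluronan strand, link protein locks the bond, and chondroitin sulfate chains on the core protein draw water and give the tissue its resistance to compression. COMP, the matrilins and chondroadherin bridge collagen fibrils, proteoglycans and cells, and chondromodulin and Ucma mark the avascular cartilage of growth plates and joints. MSCs can enter the bone, fat or cartilage lineage, and the genes above are usual readouts of the last.

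In WT cells the 10 genes ranged from among the best expressed to barely detected, read as TPM (a level scaled for transcript length and library size). Comp led with 459 and 488 TPM and ranked 314 and 300 from the top of each WT library. Acan followed with 65.4 and 103 TPM. Lect1 stood at 56.2 and 43.9 TPM, Ucma at 49.1 and 39.3 TPM and Hapln1 at 35.0 and 44.5 TPM. The last 3 overlapped one another, so their order was not resolved. Below a wide gap came Matn4 with 4.80 and 4.94 TPM and Chad with 2.49 and 1.87 TPM. Matn3 was at 0.17 and 0.33 TPM, Matn1 at 0.13 and 0.16 TPM and Cytl1 at 0 and 0.25 TPM, where the values of Matn1 and Cytl1 overlapped. So 5 of the 10 genes carried nearly all of the signal, and the summed TPM of the 10 was 671.9 and 726.5 in WT against 16.4 and 14.8 in cKO. Comp alone made up 68.2% and 67.2% of that sum in WT and 79.7% and 77.7% in cKO.

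**Figure D1:**
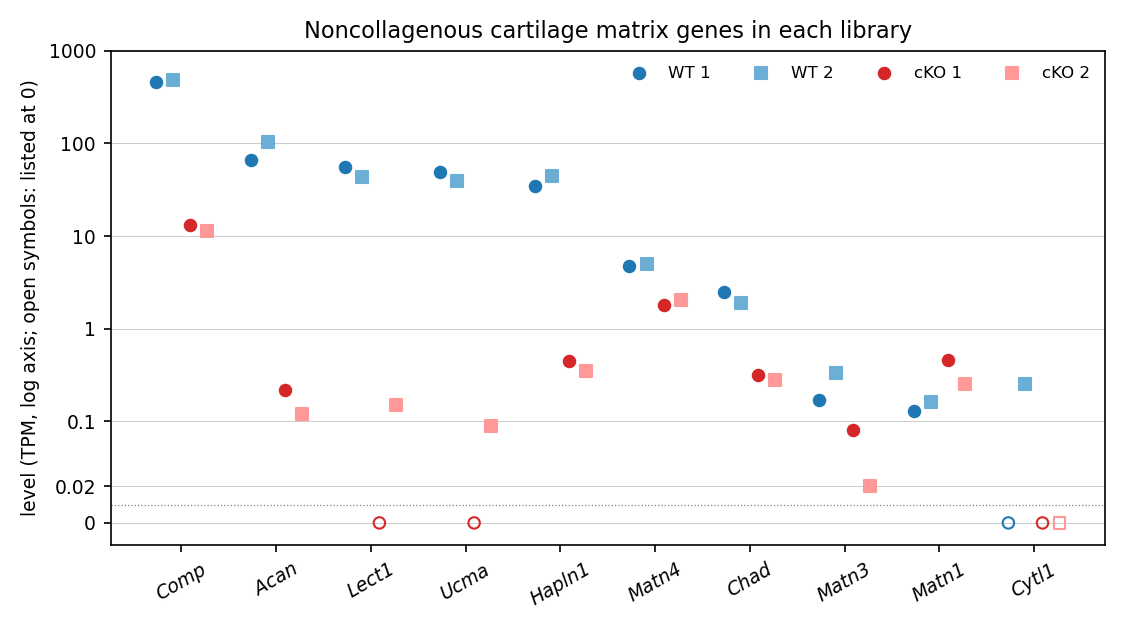
Level of each of the 10 genes in the 4 libraries, in TPM on a log axis, with values listed at 0 drawn as open symbols under the dotted line. Each point is 1 library (2 WT in blue, 2 cKO in red), and Comp leads in every library, at 459 and 488 TPM in WT and 13.1 and 11.5 TPM in cKO, while Matn1 is the only gene with both cKO points above both WT points.

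None of the 10 genes held an m6A peak in the MeRIP-Seq list, whether a peak was placed by its summit, by any overlap with an exon, or kept only at a −log10 q of at least 10. Over the 14118 tested genes that could be placed on the mm9 genome used for the peaks, 42.0% had a summit within the gene. Peaks were common among genes of like level in the WT RNA-seq libraries. The level of the 10 genes in the separate cells used for MeRIP-Seq was not examined. Of 419 genes within 2-fold of the WT level of Comp, 154 (36.8%) had a peak. Around the level of Acan it was 1064 of 2417 genes (44.0%), around that of Hapln1 1897 of 3855 (49.2%), around that of Lect1 1666 of 3479 (47.9%) and around that of Ucma 1786 of 3661 (48.8%). Near the low levels of Matn3, Matn1 and Cytl1 the share was 14.9%, 14.2% and 13.8%. The peaks come as 1 list with no replicate error, and a gene without a peak is a gene in which none passed the authors' caller, not one shown to lack the mark.

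The sequence in which Mettl3 most often writes m6A, a GGAC core, was present in all 10 transcripts and dense in some of them. The longest coding transcript of Comp held 22 GGAC in 2411 nt (9.12 per kb, above 98.0% of 13485 tested genes), and that of Acan held 67 in 7355 nt (9.11 per kb, above 98.0%). Hapln1 lay at the other end with 15 in 5055 nt (2.97 per kb, above 22.3%), against a median of 4.26 per kb and quartiles of 3.11 and 5.59. Comp, Acan, Lect1 and Ucma are shown at the GGAC nearest to their stop codon, the region where m6A is known to gather, as the place in each where a peak would be looked for first. Each is 30 bases of mm9 read 5′ to 3′ on the gene's strand, with GGAC in capitals.
Comp: gcagagagtctagGGACcagtggggtcccg
Acan: cactgtaacccgtGGACtgagtttagagac
Lect1: agttcatctatcaGGACtgccaagcaagaa
Ucma: cctctccacagacGGACccacaaggtgaag
The Comp site (chr8:72905819-72905848, plus strand) is in the 3′UTR and begins directly after the stop codon, where the last coding bases are printed to its left. The Lect1 site (chr14:80037735-80037764, minus strand) begins 17 nt and the Ucma site (chr2:4906504-4906533, plus strand) 59 nt after the stop codon, and the Acan site (chr7:86259392-86259421, plus strand) 242 nt after it, all in the 3′UTR. A GGAC match is a description of the sequence and not a methylated site. The summit closest to Comp lay 3558 bp beyond its 3′ end, in Crtc1 on the other strand, and that closest to Hapln1 lay 45395 bp beyond its 3′ end, in Vcan.

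**Figure D2:**
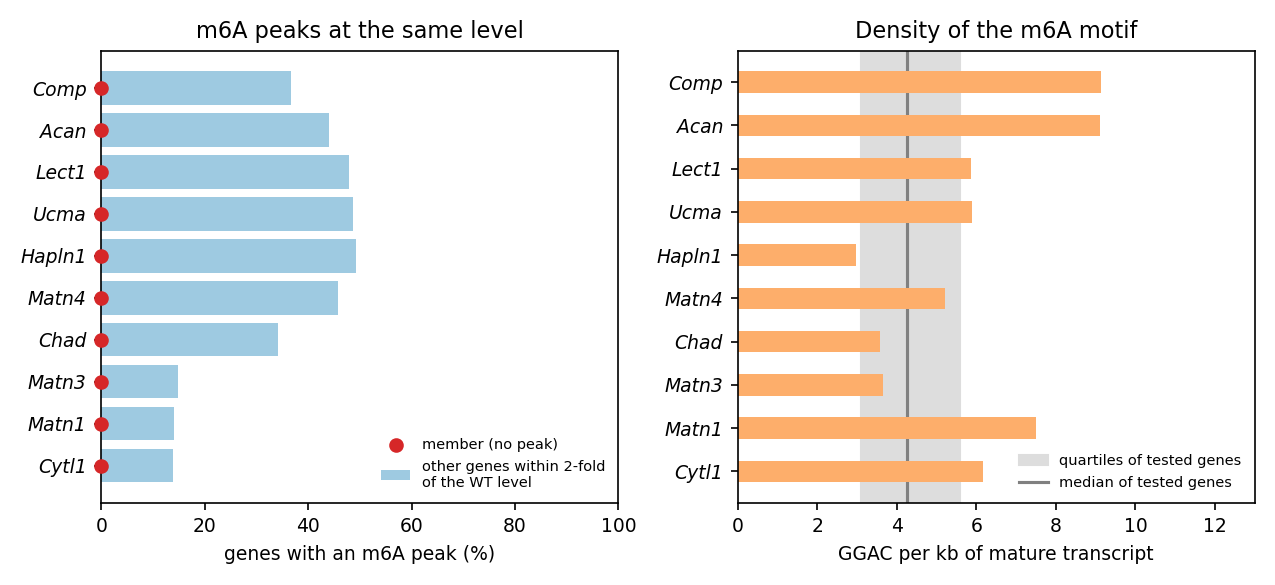
Left, percent of genes with an m6A peak among genes within 2-fold of each gene's WT level (bars), with the 10 genes themselves, which had no peak, as red points at 0. Right, GGAC per kb of the longest coding transcript of each gene (bars), with the median (4.26, line) and the quartiles (band) over 13485 tested genes, where none of the 10 had a peak although Comp and Acan both exceed 9 GGAC per kb.

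Some other cartilage genes did hold peaks in the same list. They were 8 of 27 other noncollagenous matrix genes, 6 of 14 collagen genes and 7 of 18 regulators of cartilage formation. The share over all tested genes was 42.0%. Col9a1, Col9a2, Col9a3, Col11a2, Scrg1, Sox5 and Sox6 were among those without a peak. Sox9, the transcription factor that switches on the cartilage program, had 1 peak with a fold enrichment of 6.34 and a −log10 q of 12.6, and Col2a1, the main cartilage collagen, had 1 with 3.28 and 10.1. Susd5 (fold enrichment 7.25), the lubricin gene Prg4 (3.26) and the fibromodulin gene Fmod (2.58) held 1 each. Among all genes with a fitted log2 fold change under −4 and at least 100 counts in both WT libraries, 10 of 64 (15.6%) had a peak, and without the 5 genes described here 10 of 59 (16.9%), beside 48.5% of all 11095 genes with such counts.

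Between genotypes, 7 of the 8 tested genes were lower in cKO past an adjusted p of 0.05 in edgeR's fit over all genes, where 16.8% of the 15327 tested genes were called lower. In 8 of 8 both cKO libraries lay under both WT libraries, as for 35.0% of all tested genes. A fitted log2 fold change under −4 was found for 5 of the 8 and for 0.881% of all tested genes. These counts restate how the genes were chosen and add no evidence to it. With 2 libraries against 2, the smallest p that a two-sided exact permutation test can give for a single gene is 0.333. The median log2 fold change of the 8 was −6.06, in a range from −9.76 to −1.41, beside a median of −0.0039 over all tested genes. In bulk RNA, fewer cells of a type and less RNA per cell cannot be told apart. Chondrocyte markers (Sox9, Sox5, Sox6, Col2a1, Col9a1, Col11a2 and Col10a1) moved with these genes. All 7 fell, from a sum of 2707 and 2541 CPM in WT to 76.7 and 78.6 CPM in cKO, and their part in the result was not tested. Col2a1 made up most of the WT sum. Sox5 (log2 fold change −0.90) and Sox9 (−1.97) fell the least of the 7.

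Of the proteoglycan aggregate, both measured partners were nearly lost from cKO. Acan, the aggrecan core protein (ENSMUSG00000030607, GRCm38 chr7:79053483-79115099), had 10974 and 13809 counts in WT and 27 and 20 in cKO. That is 406 ± 116 CPM in WT and 0.870 ± 0.344 CPM in cKO (SD, n = 2 each), 481-fold lower (log2 fold change −8.91, SE 0.319). Its lowest WT library was far above its highest cKO library, and 0.214% of the WT level remained. Hapln1, the cartilage link protein (ENSMUSG00000021613, chr13:89540636-89611832), had 4378 and 4725 counts in WT and 38 and 39 in cKO, or 148 ± 26.6 against 1.395 ± 0.244 CPM (107-fold, log2 fold change −6.75, SE 0.193). The ratio of Acan to Hapln1 in TPM was 1.87 and 2.32 in WT and 0.489 and 0.343 in cKO, with no overlap between the genotypes, although the cKO values rest on 20 to 39 counts each.

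Comp (ENSMUSG00000031849, chr8:70373548-70382065), a pentamer that ties collagen fibrils together, kept the most transcripts of the 5 well-expressed genes. It had 25722 and 23443 counts in WT and 497 and 572 in cKO, or 795 ± 48.4 against 19.2 ± 1.81 CPM (41.4-fold, log2 fold change −5.37, SE 0.0989). The libraries of each genotype were close to each other and the genotypes were far apart, with 2.42% of the WT level left. Comp exceeded Acan 7.01-fold and 4.73-fold in TPM in WT, and 59.4-fold and 95.6-fold in cKO.

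The matrilins, adaptor proteins that join collagen fibrils to proteoglycans, were scarce and went different ways. Matn4 (ENSMUSG00000016995, chr2:164389393-164405160) had 264 and 229 counts in WT and 68 and 100 in cKO, or 7.95 ± 0.207 against 2.97 ± 0.234 CPM (2.66-fold, log2 fold change −1.41, SE 0.151). It overlaps Rbpjl on the opposite strand, and the counting is not stated to use strand, but Rbpjl itself had only 4 to 15 counts per library. Matn3 (ENSMUSG00000020583, chr12:8947929-8972028) had 12 and 20 counts in WT and 4 and 1 in cKO. Both cKO libraries were below both WT libraries, at a ratio of 5.78 with a 95% counting interval from 2.24 to 19.0, and Matn3 was the 1 tested gene of the list not called in the fit. Its fitted log2 fold change of −2.48 (SE 0.783) ran from −3.90 without cKO 1 to −1.64 without cKO 2. Matn1 (ENSMUSG00000040533, chr4:130944385-130955475), the classic cartilage matrilin, had 6 and 6 counts in WT and 14 and 10 in cKO. It was thus higher in both cKO libraries, 0.195 ± 0.0246 CPM in WT and 0.446 ± 0.187 CPM in cKO, at levels too low for the filter. The matrilin typical of developing cartilage was therefore near the detection limit in WT cultures that held Acan and Comp at high levels.

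Chad, chondroadherin (ENSMUSG00000039084, chr11:94565047-94569127), mediates binding of chondrocytes to the matrix through integrins. It had 91 and 59 counts in WT and 8 and 9 in cKO, or 2.39 ± 0.427 against 0.306 ± 0.0338 CPM (7.79-fold, log2 fold change −2.96, SE 0.340). The gene lies inside Acsf2, which is read from the opposite strand and had 386, 253, 232 and 346 counts in WT 1, WT 2, cKO 1 and cKO 2 (log2 fold change 0.00, adjusted p = 0.989 by edgeR). The libraries of Acsf2 overlapped between genotypes while those of Chad did not. Without strand, reads of the 2 genes cannot be told apart where their exons overlap.

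The small cartilage products Lect1 and Ucma were at 0 in cKO 1. Lect1, now named Cnmd, encodes chondromodulin, which inhibits vessel growth into cartilage (ENSMUSG00000022025, chr14:79637690-79662170), and had 1608 and 1076 counts in WT and 0 and 4 in cKO. The pooled ratio was 606 with a 95% counting interval from 237 to 2227. Ucma, a Gla-rich protein of the upper growth plate (ENSMUSG00000026668, chr2:4976122-4985748), had 693 and 496 counts in WT and 0 and 1 in cKO, a ratio of 1075 with an interval from 192.5 to 42480. Their fitted log2 fold changes were −9.15 (SE 0.354) and −9.76 (SE 0.343) and rest on the 5 counts of cKO 2. They moved to −13.27 and −12.10 without that library, and to −8.37 and −9.07 without cKO 1. The SE printed here come from edgeR's quasi-likelihood test, and DESeq2 gave larger ones, 0.742 for Lect1 and 1.41 for Ucma. Cytl1, a small secreted protein made by chondrocytes (ENSMUSG00000062329, chr5:37735519-37739820), had 4 counts in WT 2 and 0 in the other libraries, which is below what can be compared. A count of 0 over the cKO group allows up to 0.0534 CPM.

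Ranked over all 15327 tested genes from the lowest fold change, Ucma was at place 2, Lect1 at 4, Acan at 5, Hapln1 at 29 and Comp at 57, while Chad, Matn3 and Matn4 were at 255, 323 and 729. The order of Ucma, Lect1 and Acan was not resolved, since Ucma and Lect1 rest on 1 and 4 cKO counts, and without cKO 1 Acan had the lowest of the 3 values at −9.33. The share of the WT level left in cKO ran in the same order, from 0.0825% for Ucma and 0.147% for Lect1 to 12.8% for Chad and 37.4% for Matn4. The order of the WT levels differed from the order of the falls, since the top gene, Comp, kept more than Acan, Hapln1, Lect1 or Ucma.

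**Figure D3:**
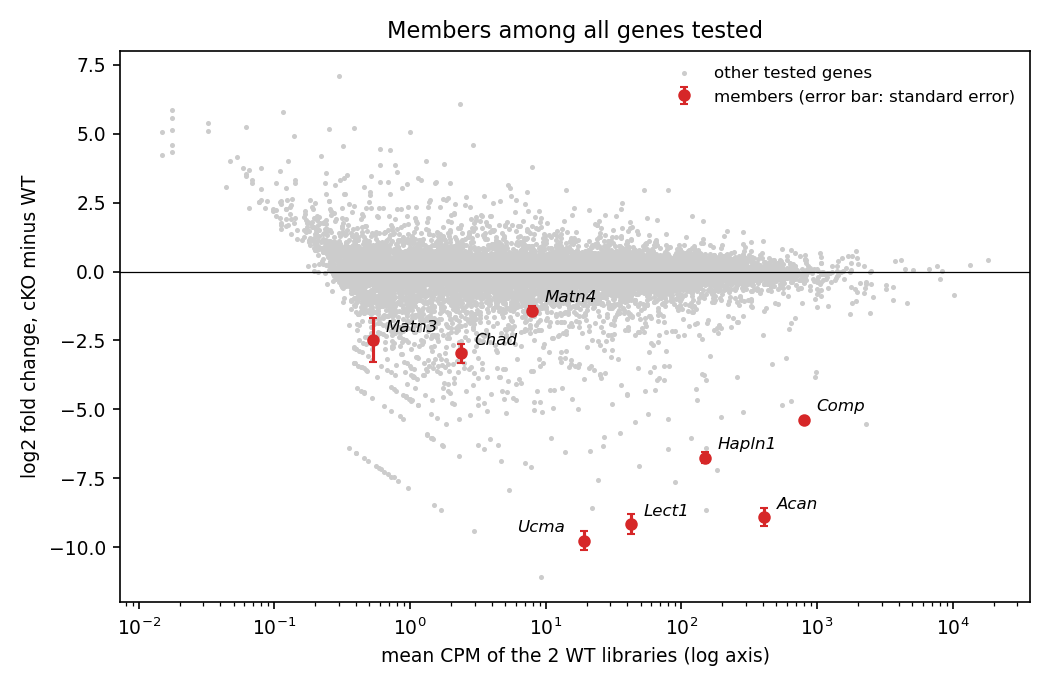
Log2 fold change of cKO against WT over the mean CPM of the 2 WT libraries on a log axis, for the other tested genes with a WT count (grey) and the 8 tested genes of the list (red, with standard errors). Ucma, Lect1 and Acan lie at the lower edge of the cloud, between −9.76 and −8.91, and Matn4 nearest to 0 at −1.41. The standard errors come from edgeR's test and are smaller than those of DESeq2 for Ucma and Lect1.

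The 2 WT libraries, which the choice of genes did not compare, differed from each other in a way that split the list. The ratio of WT 2 to WT 1 in CPM was 1.505 for Acan (95% counting interval 1.47 to 1.54), above 97.7% of 12663 genes, and 1.29 for Hapln1 (1.24 to 1.35), above 93.6%. Comp at 1.09 (1.07 to 1.11) and Matn4 at 1.04 (0.865 to 1.24) were within the middle of all genes. Lect1 at 0.800 (0.740 to 0.865), above 9.41% of genes, and Ucma at 0.856 (0.761 to 0.962) went the other way. So did Chad at 0.7755 (0.549 to 1.09), with an interval that includes 1. Acan and Hapln1 were thus higher in WT 2, and Lect1 and Ucma were higher in WT 1, all but Acan within the spread of most genes. The intervals cover counting error only, and with 1 library on each side there is no test.

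**Figure D4:**
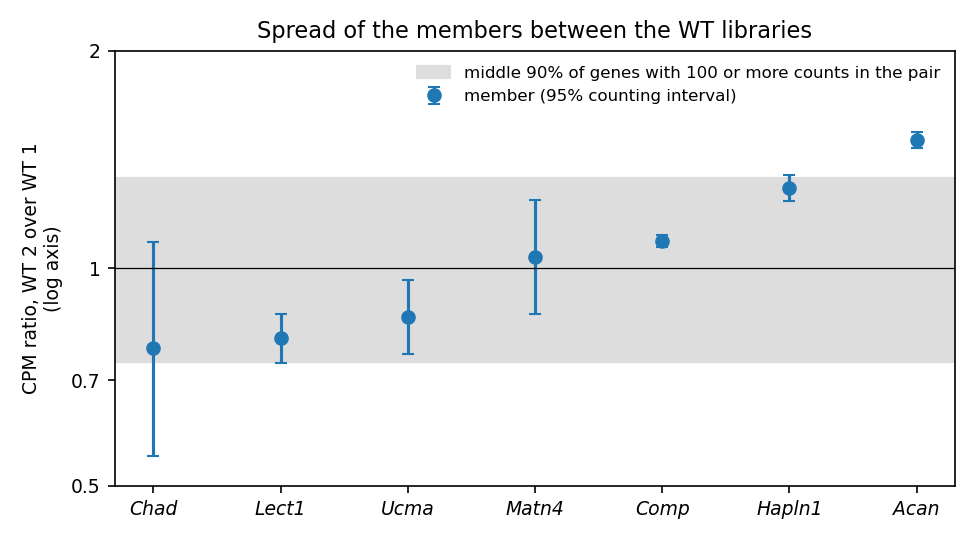
Ratio of WT 2 to WT 1 in CPM on a log axis for 7 listed genes (points), with 95% counting intervals, beside the 5th to 95th percentile band of 12663 genes (0.741 to 1.333). Acan lies above the band at 1.505, Lect1 (0.800) and Ucma (0.856) lie under 1 and inside it, and the interval of Chad (0.549 to 1.09) reaches past both 1 and the lower edge of the band.

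Tested relatives in the same protein families moved less than Acan, Hapln1 and Comp, and in both directions. The listed genes had been chosen on their difference between genotypes, a fall for most of them. This contrast with their relatives therefore follows in part from the choice. It did not hold for every listed gene, since Bcan (−2.27), Hapln4 (−2.17) and Chadl (−1.47) had lower log2 fold changes than Matn4 (−1.41). Of 13 relatives, 9 were tested, 4 were lower and 1 was higher, with a median log2 fold change of −0.27. Over all tested genes, 16.8% were called lower and 13.7% higher. Versican (Vcan), the broadly expressed relative of aggrecan, had 282, 227, 286 and 277 CPM in WT 1, WT 2, cKO 1 and cKO 2 (log2 fold change 0.15, SE 0.104, adjusted p = 0.335 by edgeR). The thrombospondin gene Thbs1, related to Comp, had 2640, 2243, 2428 and 2436 CPM (−0.01, SE 0.0849, adjusted p = 0.970). For neither did the genotypes separate, and the fitted value changed sign when single libraries were left out. Thbs3 was higher in cKO, with 12.1 and 15.7 CPM against 24.5 and 23.7 CPM (0.80, SE 0.134, adjusted p = 0.00675), a call that was lost on TPM with limma (adjusted p = 0.159). Matn2 had 75.5 and 97.2 CPM in WT and 75.8 and 75.2 CPM in cKO (−0.19, SE 0.117, adjusted p = 0.261).

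Of the 4 relatives that fell, 3 did so from low levels, among them 2 genes best known from brain. Brevican (Bcan) had 2.78 and 3.96 CPM in WT and 0.701 and 0.690 CPM in cKO (log2 fold change −2.27, SE 0.299, adjusted p = 0.00276 by edgeR). The brain link protein Hapln4 had 2.19 and 2.97 CPM against 0.495 and 0.627 CPM (−2.17, SE 0.318, adjusted p = 0.00402). Chadl, the relative of Chad, had 2.22 and 3.04 CPM against 0.949 and 0.941 CPM (−1.47, SE 0.284, adjusted p = 0.0114), and lost its call without cKO 1 (0.058), without cKO 2 (0.0651) and on TPM with limma (0.0597). Both cKO libraries lay under both WT libraries for these 3 genes, as for 35.0% of all tested genes. Of the 13 relatives, 6 held an m6A peak, including Vcan, Thbs1 and Matn2 with 2 each. The share with a peak over all tested genes placed on mm9 was 42.0%. The 4 genes of the aggrecan family each sit beside a link protein gene with no gene between them, Vcan 43479 bp from Hapln1 and Acan 2 bp from Hapln3. In the pairs that hold Acan or Hapln1, the neighbours differed in level and in fitted fold change. In the other pairs Hapln2 and Ncan did not pass the count filter, so their differences cannot be compared. Hapln1 fell 107-fold beside the nearly level Vcan. Hapln3, at 0.443 and 0.495 CPM in WT and 0.247 and 0.282 CPM in cKO, had a log2 fold change of −0.80 (SE 0.448, adjusted p = 0.225 by edgeR) beside the −8.91 of Acan. Both cKO libraries of Hapln3 lay under both WT libraries, at 6 to 15 counts per library.

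**Figure D5:**
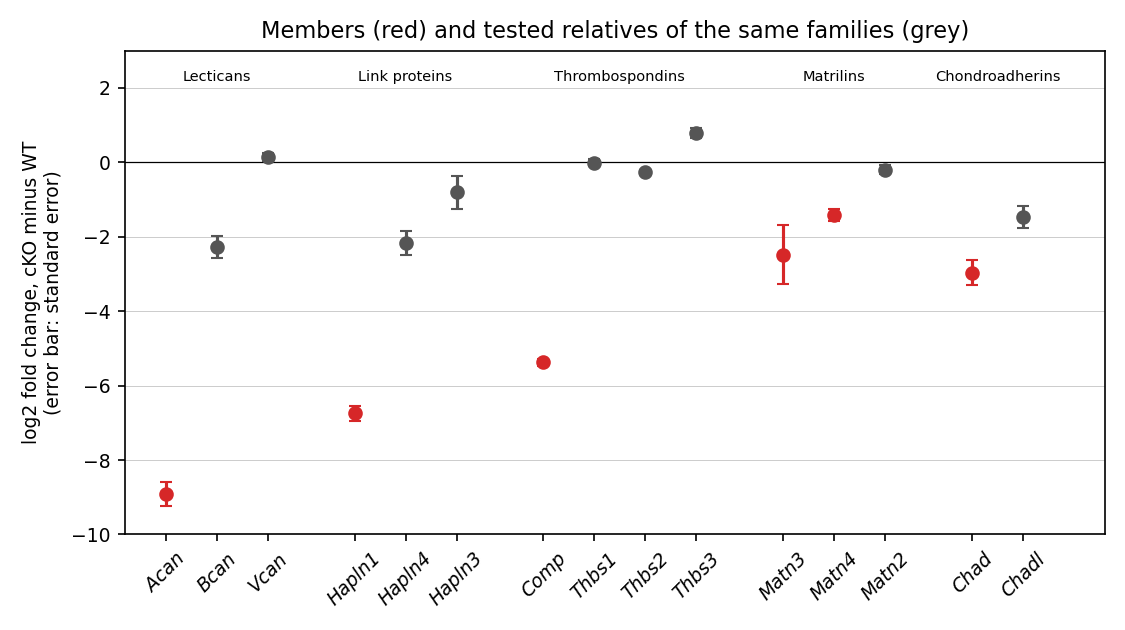
Fitted log2 fold change of cKO against WT, with standard errors, of the tested genes of 5 families, with the listed genes in red and their relatives in grey. Acan (−8.91), Hapln1 (−6.75) and Comp (−5.37) lie far under their tested relatives, of which Bcan (−2.27) and Hapln4 (−2.17) are the lowest. The listed genes had been chosen on their difference between genotypes, a fall for most of them.

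Other noncollagenous matrix genes gave 14 lower and 4 higher of 23 tested, with a median log2 fold change of −1.15. The shares over all tested genes were 16.8% lower and 13.7% higher. The largest falls were those of Scrg1, Susd5 and 3110079O15Rik. Scrg1 had 16.4 and 26.2 CPM in WT and 0.247 and 0.220 CPM in cKO (−6.49, adjusted p = 0.000107 by edgeR), Susd5 had 24.5 and 29.1 against 0.371 and 0.439 CPM (−6.02, adjusted p = 1.08e-05), and 3110079O15Rik, a cartilage membrane proteoglycan also called Snorc, had 3.99 and 6.26 against 0.124 and 0.157 CPM (−5.12, adjusted p = 0.000394). Prg4, which encodes the joint lubricant lubricin, went from 72.0 and 76.9 CPM to 5.12 and 4.67 CPM (−3.93), and the fibronectin gene Fn1 from 5338 and 3893 CPM to 2091 and 2063 CPM (−1.15, adjusted p = 0.00199). Ecm1 (567, 527, 612 and 616 CPM) was not called (0.17, adjusted p = 0.0913). Those that rose were the growth factor-binding gene Ctgf (from 282 and 286 to 579 and 561 CPM), Tnc (log2 fold change 0.80), Smoc1 (0.72) and Cilp (3.22, at 1.28 CPM or less), of which Cilp lost its call without cKO 1 (adjusted p = 0.0975 by edgeR). The value of Cilp, with 7 and 0 counts in WT, went to 7.91 without WT 1 and to 2.34 without WT 2.

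All 12 of the 14 collagen genes that were called fell, with a median over the 14 of −2.03, beside 16.8% of all tested genes. The 3 chains of type IX collagen, which sits on the surface of type II fibrils and binds Comp and the matrilins, had log2 fold changes of −7.64 (Col9a3), −6.34 (Col9a2) and −5.84 (Col9a1), inside the range of Acan, Hapln1 and Comp. Col2a1 went from 2403 and 2194 CPM to 47.9 and 51.5 CPM (−5.53, adjusted p = 1.61e-06 by edgeR). The more widely expressed Col12a1 (−1.51) and Col6a1 (−1.05) fell less.

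Among regulators of cartilage formation, 10 of 16 tested genes were lower and 3 higher, and without cKO 1 the same list gave 7 lower and 1 higher. Sox9 fell less than Acan, Hapln1 or Comp and more than Matn4, with 47.7 and 61.8 CPM in WT and 14.4 and 13.5 CPM in cKO (−1.97, adjusted p = 0.000218 by edgeR). Its partner Sox6 had 13.5 and 17.5 against 0.619 and 0.627 CPM (−4.62, adjusted p = 4.69e-05). The log2 fold change was −4.30 for the growth plate receptor Fgfr3 and −4.22 for Foxa3, which had 0.857 and 1.31 CPM in WT. Those that rose were Arid5b (0.87), Mef2c (0.45) and Zfp219 (0.41) on the log2 scale. Of all tested genes, 16.8% were called lower and 13.7% higher. Wwp2 and Trps1, the highest of the list over all 4 libraries, had log2 fold changes of −0.85 and −0.37. Trps1 lost its call without cKO 1 (adjusted p = 0.123 by edgeR) and without cKO 2 (0.137).

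Among enzymes and transporters that build the glycosaminoglycan chains of aggrecan, and hyaluronan itself, 16 of 31 tested genes fell and 2 rose. Their median log2 fold change was −0.26, and over all tested genes 16.8% were called lower and 13.7% higher. The hyaluronan synthase Has1 had 6.56 and 8.98 CPM in WT and 0.536 and 0.721 CPM in cKO (−3.59, adjusted p = 0.000306 by edgeR), Chsy3, a chondroitin synthase, had 11.2 and 11.6 against 1.86 and 2.38 CPM (−2.41, adjusted p = 0.000194), and Papss2, which supplies sulfate donor in cartilage, had 33.2 and 24.4 against 5.65 and 6.05 CPM (−2.30, adjusted p = 0.000285). The log2 fold change was −1.98 for Chst11, a chondroitin sulfotransferase, and −2.01 for Ugdh, which makes the glucuronate precursor. Chst15 rose, from 4.58 and 5.73 CPM to 17.5 and 17.8 CPM (1.78, adjusted p = 0.000296). Chpf, among the best expressed of the list (172, 174, 162 and 167 CPM), was not called (−0.07, adjusted p = 0.371). Chpf2, with 187, 202, 154 and 156 CPM, was lower (−0.32, adjusted p = 0.0122 by edgeR), but not without cKO 1 (0.195), without cKO 2 (0.164) or on TPM with limma (0.373). Of the 31 genes, 22 held an m6A peak, beside 42.0% of all tested genes placed on mm9.

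Outside the list, the 5 genes whose log2 CPM profile over the 4 libraries was closest to the mean profile of the 10 were Eef1a2, Anxa8, Pitx1, Fmod and Cpxm2, at distances of 0.0967 to 0.206 among 14739 genes compared. Eef1a2 had 19.2 and 19.4 CPM in WT and 1.32 and 1.25 CPM in cKO, and Pitx1, a factor of hindlimb identity, had 70.3 and 79.1 against 7.26 and 6.71 CPM. The 10 genes themselves lay 1.69 (Chad) to 4.73 (Acan) from their own mean, so none of the 10 was as close to that mean as the genes named here.

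Promoters, from 250 bases before to 50 after the start site in the RefSeq table of GRCm38.p6, were found for 9 of the 10 genes, Lect1 under the name Cnmd, and Comp was not matched. A SOX-type motif (AACAAT or ATTGTT on either strand) was in none of the 9, beside 10.7% of 32851 promoters. A TATA motif (TATAAA or TTTATA) was in 1 of the 9, beside 13.6% of all promoters. That gene is Chad, where the motif begins 28 bases before the start site and is shown in capitals as the only match in the list (chr11:94565007-94565036, plus strand).
Chad: tcaaggctgcccTATAAAtgggccgggaga
The absence of these letters from a window of 300 bases bears only on that window.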

How the data were processed

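RNA was measured in 2 WT and 2 cKO libraries, and m6A in 2 immunoprecipitates and 2 inputs, grouped by the sample labels. Per the labels and the study, the RNA-seq reads were mapped with HISAT2 2.0.4. The deposited estimated counts are one value for each gene on GRCm38 positions, not normalized by the authors. The authors also deposited values headed FPKM that sum to 1000000 in each library and are therefore TPM. The deposited peak list, in MACS2 layout on mm9, gives the authors' pileup signal at the summit, the fold enrichment (a ratio) and the q-value as −log10. Whether samples were pooled for peak calling, and whether counting used strand, is not given in the sources used here.

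Of 47732 entries, 89 had no gene name (0.110% to 0.125% of a library's counts) and were left out. Counts were rounded and passed through filterByExpr, and edgeR 4.0.16 was used for TMM scaling and a two-sided quasi-likelihood test without a block. The SE beside an edgeR log2 fold change is that change, without sign, divided by the square root of the test's F statistic. P-values were adjusted by Benjamini and Hochberg across all tested genes, with a threshold of 0.05. The code was tested on simulated data. Peaks were matched to genes with GENCODE vM1, which lacked 1209 of the tested genes. Intervals are exact for counts at 95% and floors use 3 counts, and both describe counting error alone, because amplified reads are not separate molecules. Protein sequences were not used here, and 1 site sequence is not reported here.

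The members and lists were chosen with earlier results of these data known. Named were all members, the 2 best expressed (mean over the 4 libraries) and the 3 most changed called genes of each list, the 5 nearest profiles (distances between centred log2(CPM + 0.5)) and genes that overlap a member. Other genes were named after their values were seen. Alternatives were a replicate block, no filter, DESeq2 1.42.0, its size factors within edgeR, limma 3.58.1 on log2(TPM + 0.1), a linear model on log2(TPM + 1), a stricter or exon-based peak match, each library left out and, added after seeing the data, the cKO libraries summed.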

Additional observations from a re-analysis of the deposited data

How the results depend on the processing

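With 2 libraries a genotype, the counts of calls depended on the fit. No filter, median-of-ratios size factors and DESeq2 kept every count within 1.5 times that reported. The replicate numbers did not pair the libraries (correlation of deviations 0.0254 over 10045 genes), and with the number as a replicate block 2629 genes were lower and 2256 higher, with a members' median of −6.06. On log2(TPM + 0.1) with limma, 1232 genes were lower, 2 family relatives and 6 regulators were called, and the median was −6.31. The linear model on log2(TPM + 1) called 52 genes lower, 47 higher, 0 relatives (3 at an unadjusted p under 0.05), 1 other noncollagenous gene, 4 collagens, 1 regulator and 1 glycosaminoglycan gene, with a median of −5.16. With the cKO libraries summed, 1223 genes were lower, 796 higher and 8 regulators called. With each library left out in turn, 1161 (without cKO 2) to 4508 (without WT 1) genes were lower, 732 to 4243 higher, 3 to 8 relatives called and 8 to 14 regulators called. The lone library was then assumed to vary like the other genotype. Some values near 0 changed sign. Chpf was at 0.019 with limma and 0.018 with the linear model. Thbs1 was at 0.099 with limma, 0.099 with the linear model, 0.12 without WT 1, −0.12 without WT 2, 0.0007 without cKO 1 and 0.0017 with the cKO libraries summed. Vcan was at 0.32 without WT 1 and −0.0049 without WT 2. Matn1, Matn3 and Cytl1 are limited by depth, with at most 20 counts in a library.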
